A study of Mus musculus with 5 samples.

Results

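Oxidative phosphorylation is carried out in the inner mitochondrial membrane by 5 multi-subunit complexes. Complexes I and II pass electrons from NADH and succinate to coenzyme Q, complex III passes them on to cytochrome c, complex IV (cytochrome c oxidase) gives them to oxygen, and complex V (ATP synthase) makes ATP from the proton gradient that complexes I, III and IV build. Most subunits are encoded in the nucleus, and some subunits of complex IV exist as alternative isoforms, of which those of heart, skeletal muscle and testis are the best known. Naive mouse embryonic stem cells are known to respire, whereas the primed cells of the postimplantation epiblast lean more on glycolysis.

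The genes described here are the nuclear-encoded subunits of these complexes, taken by name from the array's annotation. They are the probes whose symbol begins with Nduf, Uqcr, Cox4, Cox5, Cox6, Cox7, Cox8 or Atp5, or is Cyc1, Cycs, Sdhb, Sdhc or Sdhd, among all 25697 probes of the array. The symbol Sdha also belongs to the rule and was not analysed here. The rule gave 110 probes of 87 genes. Of these, 95 probes of 79 genes were detected (detection p under 0.05) on at least 2 of the 5 arrays and entered the test, out of 12605 probes and 8828 named genes tested in all. The 8 genes that did not pass were Ndufs1, Ndufb11, Uqcrfs1, Uqcrq, Cox4i2, Cox7b2, Cox8b and Atp5k, each detected on 0 arrays by every probe. Their transcripts may still be present below the reach of these probes, since Ndufs1, Uqcrfs1 and Uqcrq are subunits that no other gene in the rule replaces.

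Total RNA came from the mouse embryonic stem cell line 46C, in which green fluorescent protein reports on Sox1, a gene of the early neural lineage, in both groups. The ESC group (n = 2) was kept pluripotent on gelatin without feeder cells or serum, in the defined medium N2B27 with LIF, BMP and the FGF receptor inhibitor PD173074 at 100 nM. The N2B27 48 hr group (n = 3) was trypsinised, washed and replated in plain N2B27, without these additions, for 48 hr, a state the labels call competent to differentiation signals. All samples are of this 1 line, and the labels do not name separate cultures for the replicates, so the p-values reflect only how these samples vary, and that variation may be technical. Summed over 7 markers of pluripotent and naive cells, normalized signal was 13368 to 14018 in ESC and 2043 to 2244 in N2B27 48 hr. Their log2 changes ran from -5.07 (Nanog) to -0.44 (Pou5f1), with Sox2 at -2.17. Klf4 was undetected in N2B27 48 hr, while Pou5f1 was detected on all 5 arrays. Over 4 markers of the postimplantation epiblast the sum was 2347 to 2498 in ESC and 21155 to 21666 in N2B27 48 hr. The log2 changes of these 4 ran from 0.43 (Otx2) to 5.47 (Pou3f1), with Fgf5 undetected in ESC. Of 5 fibroblast markers 0 were detected in ESC and 2 in N2B27 48 hr, Dcn on all 3 arrays (adjusted p = 7.48e-06) and Lum on 1. Col1a1, Col1a2 and Pdgfra were undetected. The summed signal of the 5, undetected probes included, was 105.5 on both ESC arrays and 145 to 171 in N2B27 48 hr. In ESC this sum reads background. The part of fibroblasts in the results was not tested. On each array 42.1% to 47.5% of the probes were detected, and the mean signal ran from 187 on N2B27 48 hr replicate 1 to 264 on ESC replicate 1.

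After 48 hr in N2B27 the counts of changed subunit genes varied from complex to complex. Complex IV had the largest share of subunit genes that fell, 9 of 15 (60.0%), with a median log2 change of -0.38, and 0 rose. Complex I was spread on both sides of no change, with 5 of 31 genes lower (16.1%), 2 higher (6.45%) and a median of -0.03. Complexes III and V had 2 of 7 (28.6%) and 4 of 15 (26.7%) genes lower and 0 higher, with medians of -0.11 and 0.04. Of all 8828 tested genes 21.4% fell and 23.8% rose, so the shares that fell in complexes III and V are near the background. In complex II 2 of 3 genes rose, with a median of 0.26. Scaling each array to its median over all probes, which moves the median of all genes from 0.05 to -0.11, gave -0.62 for complex IV, -0.21 for complex I, -0.32 for complex III, -0.16 for complex V and 0.07 for complex II, so the sign of complex V depends on the scaling, and scaling to detected probes gave 0.01 for complex I. Under the first of these 0 genes of complex II passed. Calls are from limma's moderated test across all probes at a Benjamini-Hochberg adjusted p under 0.05, with each gene represented by its brightest tested probe.

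Of all 79 genes, 21 (26.6%) fell and 6 (7.59%) rose. Over all 8828 genes tested, 21.4% fell and 23.8% rose, with a median log2 change of 0.05. Of the genes that changed, 52.6% were higher, and 29.7% were with each array scaled to its median over all probes. In this setting the share of subunit genes that fell is near the background, the share of complex IV is above it, and the share that rose is below it. With cyclic loess in place of quantile normalization, 32 of the 79 fell (40.5%, against 25.2% of all genes), and with no filter on dim probes 17 of 87 fell (19.5%, against 10.8%), so the first of these depends on the processing. No gene group was tested against the others, because the genes of a complex are not replicates of each other. In 30 of the 79 genes all N2B27 48 hr arrays lay below both ESC arrays, against 29.9% of all genes, and in 15 all lay above, against 35.1%. Only Cox7a1 and Cox5a fell by at least 2-fold, a size reached by 7.48% of all genes in that direction, and 1, the assembly factor Ndufaf7, rose as much, against 5.23% of all genes. In RNA from whole cultures, fewer cells of a kind and less RNA per cell cannot be told apart, and normalization between arrays removes any change in the total amount of mRNA per cell.

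**Figure D1:**
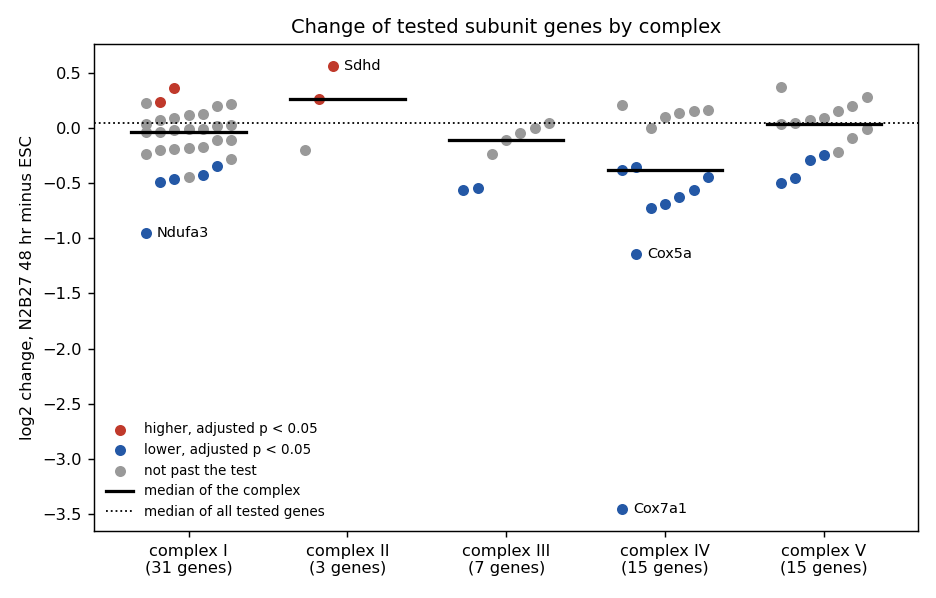
Log2 change (N2B27 48 hr minus ESC) of the 71 tested subunit genes of complexes I to V, 1 point per gene (red higher, blue lower, grey not past the test), with black bars for the median of each complex and a dotted line for the median of all tested genes (0.05). Complex IV reaches lowest, with its median at -0.38, and Cox7a1 stands apart at -3.46.

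The shift of each complex was also read on each array, as the mean over its genes of the log2 signal minus the gene's ESC mean. For complex IV it was -0.49, -0.56 and -0.47 on the 3 N2B27 48 hr arrays, while the ESC arrays, which lie around 0 by construction, were at 0.0035 and -0.0035. Without Cox7a1 the complex IV values were -0.30, -0.35 and -0.23, so that all 3 arrays stayed below both ESC arrays without the gene that fell most. Complex III lay at -0.20, -0.24 and -0.18, and complex I at -0.10, -0.11 and -0.07. Complex V lay at -0.04, -0.03 and -0.03, where ESC replicate 2 was also at -0.03, so the groups overlapped. Complex II lay at 0.11, 0.26 and 0.26 on the basis of 3 genes.

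**Figure D2:**
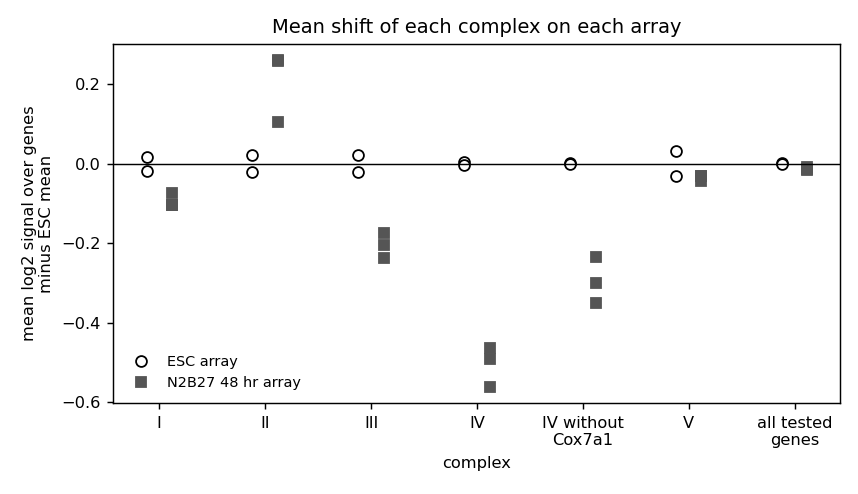
Mean over the genes of each complex of log2 signal minus the gene's ESC mean (y axis), for each of the 2 ESC arrays (circles) and 3 N2B27 48 hr arrays (squares), with complex IV shown also without Cox7a1 and all 8828 tested genes at the right. The N2B27 48 hr arrays lie lowest in complex IV, at -0.47 to -0.56, and near 0 in complex V and over all genes.

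Complex IV holds its catalytic centre in mitochondrially encoded subunits, around which the nuclear subunits form an outer shell. The largest change was that of Cox7a1, the isoform of subunit 7a best known from heart and skeletal muscle. Its deposited signal intensity was 1043 and 890 in ESC against 110, 115 and 112 in N2B27 48 hr. After background correction and normalization its log2 signal was 9.75 and 9.68 in ESC and 6.55, 6.20 and 6.02 in N2B27 48 hr. The 3 N2B27 48 hr arrays lay far below both ESC arrays and were still detected above background. The difference was 11.0-fold (log2 change -3.46 ± 0.15 SE, adjusted p = 3.36e-08), and it passed the test in all 20 alternative settings, with log2 changes from -3.76 to -2.88. Its general counterpart Cox7a2 had 7.03 and 6.83 in ESC against 6.45, 6.49 and 6.69. The groups lay close without overlapping and the fall of 0.38 ± 0.14 only just passed (adjusted p = 0.0484). The call of Cox7a2 was lost on leaving out either ESC array (adjusted p = 0.331 and 0.107) or N2B27 48 hr replicate 1 or 2 (0.0925 and 0.118). Of 4 heart and skeletal muscle markers with a probe, Myh6 and Actn2 were detected on all 5 arrays, with log2 changes of 0.54 and 0.61 (adjusted p = 0.0375 and 0.0147), and Myh7 and Ckm on 0. The summed normalized signal of the 4 markers was 101 to 107 in ESC and 129 to 147 in N2B27 48 hr. This sum includes the undetected Myh7 and Ckm and the offset of 16, so part of it is background. Myh6 and Actn2 went the other way from Cox7a1. Their part in the result was not tested.

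Cox5a and Cox5b encode subunits on the matrix side of the enzyme. The difference between their changes was not tested. Cox5a had a log2 signal of 12.54 on both ESC arrays and 11.30, 11.45 and 11.45 in N2B27 48 hr. These 3 arrays were more than 1 log2 unit lower, a 2.21-fold fall (-1.14 ± 0.08, adjusted p = 8.35e-07). Cox5b had 11.82 and 11.996 in ESC and 12.17, 11.85 and 12.21 in N2B27 48 hr. Its groups overlapped and it did not pass (0.17 ± 0.11, adjusted p = 0.242), although without N2B27 48 hr replicate 2 it passed as higher (0.29, adjusted p = 0.0355).

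Cox8a, which encodes the general form of the smallest subunit, fell 1.65-fold. Its values were 12.11 and 12.09 in ESC and 11.41, 11.40 and 11.31 in N2B27 48 hr (-0.72 ± 0.07, adjusted p = 1.89e-05). Cox6a1, the general isoform of a regulatory subunit, had 12.03 and 11.95 against 11.43, 11.35 and 11.32 by its brighter probe. The groups were clearly apart, with a 1.54-fold fall (-0.63 ± 0.08, adjusted p = 6.96e-05), and its other probe gave 1.60-fold. Cox4i1, the general form of the largest nuclear subunit, had 11.93 and 12.06 against 11.59, 11.54 and 11.52, a 1.36-fold fall (-0.45 ± 0.08, adjusted p = 7.32e-04). Its hypoxia-inducible isoform Cox4i2 was not detected on any array.

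Cox6b1, whose product lies where the enzyme pairs into a dimer, fell by both of its probes, by 0.36 ± 0.10 (adjusted p = 0.0180) for the brighter and by 0.51 for the other. The call of the brighter probe ended on leaving out either ESC array (adjusted p = 0.0685 and 0.127) or N2B27 48 hr replicate 2 (0.0745). Its testis isoform Cox6b2 had 8.63 and 8.69 in ESC and 7.94, 7.80 and 8.17 in N2B27 48 hr, a 1.61-fold fall (-0.69 ± 0.13, adjusted p = 0.00118), while its other probe was detected on 0 arrays. The testis isoform Cox8c was dim, at 5.12 and 5.11 against 4.27, 4.68 and 4.73, and was undetected on N2B27 48 hr replicate 1. The tested fall was 1.47-fold (-0.56 ± 0.16, adjusted p = 0.0181). By the lowest detected signal of that array it was at least 1.32-fold, a bound that was not tested itself. The call ended on leaving out either ESC array, with log2 changes of -0.53 and -0.55. The muscle isoform Cox6a2, detected on 1 array of each group, did not pass.

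The other 5 general subunits did not pass the test and had log2 changes from 0.003 to 0.17. Beside Cox5b these were Cox6c, Cox7b, Cox7c and Ndufa4. Cox7c was nearly level, with 12.22 and 12.10 in ESC against 12.25, 12.03 and 12.19 (0.003 ± 0.08, adjusted p = 0.982). Ndufa4, named for complex I but since placed in complex IV, had 11.96 and 11.82 against 11.96, 11.88 and 12.13 (0.10 ± 0.09, adjusted p = 0.390). With Ndufa4 left out, the median of complex IV was -0.41. Without ESC replicate 1 or ESC replicate 2, 6 genes of complex IV fell, of 15 and 14 tested, and over all 20 alternatives between 6 and 9 did. The share of all genes that fell was 13.0% and 12.8% without these arrays.

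**Figure D3:**
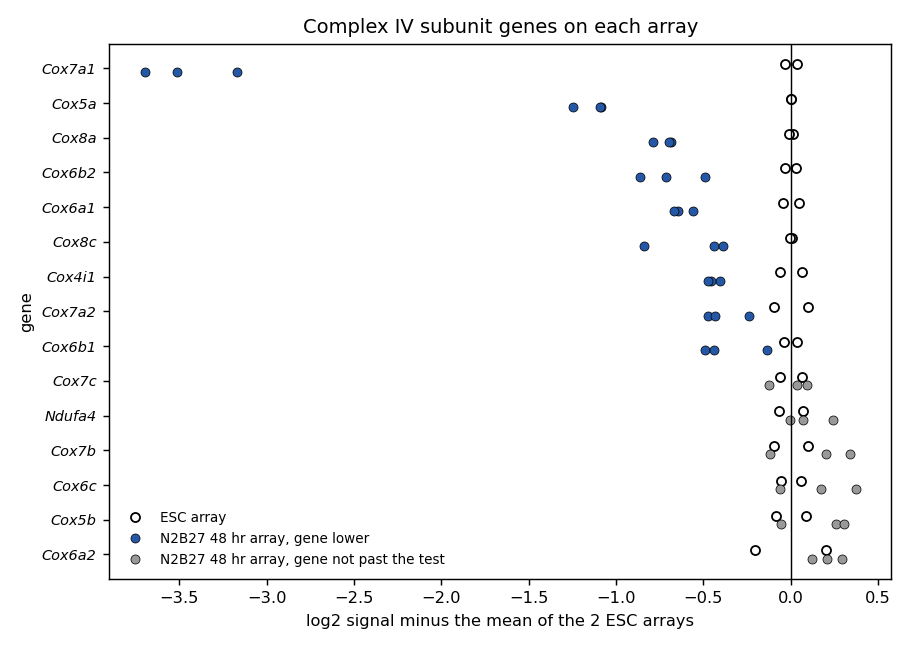
Log2 signal of each of the 15 tested complex IV genes on each array, minus the mean of the 2 ESC arrays (x axis), with ESC arrays as open circles and N2B27 48 hr arrays filled, blue where the gene fell and grey where it did not pass. The 9 blue genes have all 3 N2B27 48 hr arrays to the left of both ESC arrays, and Cox7a1 lies beyond -3.

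Because several complex IV genes fell together, promoter windows of 5 of them and of Cox5b are shown. They run from 250 bases before to 50 after the start, as RefSeq lists them for build GRCm38.p6. The choice of genes was made by hand and leaves out others that fell, such as Cox6b2. Windows were found for 71 of the 87 genes, and the first listed was used. Capitals mark matches on either strand to the NRF1 motif (GCGCA and GCGC parted by 1 base), CCGGAAG (an ETS core, as bound by GABP) and AAGATGGC (a YY1 core), factors known for their sites in respiratory gene promoters. No marked match overlaps another in these windows. The first 5 genes fell and Cox5b did not pass. The windows lie at chr7:30183921-30184220 (Cox7a1, + strand), chr9:57520982-57521281 (Cox5a, + strand), chr19:7217567-7217866 (Cox8a, - strand), chr5:115348909-115349208 (Cox6a1, - strand), chr7:30626065-30626364 (Cox6b1, - strand) and chr1:36691237-36691536 (Cox5b, + strand).
Cox7a1: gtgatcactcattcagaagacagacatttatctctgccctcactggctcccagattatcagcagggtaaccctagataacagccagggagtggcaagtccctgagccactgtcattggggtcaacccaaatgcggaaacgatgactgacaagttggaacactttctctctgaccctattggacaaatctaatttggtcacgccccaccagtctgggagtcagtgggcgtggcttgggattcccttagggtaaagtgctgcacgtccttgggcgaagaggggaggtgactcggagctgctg
Cox5a: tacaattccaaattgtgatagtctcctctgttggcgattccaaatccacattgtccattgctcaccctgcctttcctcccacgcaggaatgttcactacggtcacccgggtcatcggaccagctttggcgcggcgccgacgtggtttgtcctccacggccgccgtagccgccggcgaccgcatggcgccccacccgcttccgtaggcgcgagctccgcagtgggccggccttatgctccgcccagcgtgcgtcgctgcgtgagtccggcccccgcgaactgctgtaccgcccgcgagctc
Cox8a: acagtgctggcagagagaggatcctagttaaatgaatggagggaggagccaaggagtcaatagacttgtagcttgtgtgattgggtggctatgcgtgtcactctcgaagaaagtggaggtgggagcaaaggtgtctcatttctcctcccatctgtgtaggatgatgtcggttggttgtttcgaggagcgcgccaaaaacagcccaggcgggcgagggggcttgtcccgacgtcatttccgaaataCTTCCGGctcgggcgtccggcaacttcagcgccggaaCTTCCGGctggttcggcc
Cox6a1: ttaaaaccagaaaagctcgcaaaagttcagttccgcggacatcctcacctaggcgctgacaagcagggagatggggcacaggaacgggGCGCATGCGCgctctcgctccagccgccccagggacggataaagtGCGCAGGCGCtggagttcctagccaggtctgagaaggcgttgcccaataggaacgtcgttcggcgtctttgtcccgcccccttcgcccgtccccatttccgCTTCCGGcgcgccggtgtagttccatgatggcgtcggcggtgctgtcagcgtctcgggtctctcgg
Cox6b1: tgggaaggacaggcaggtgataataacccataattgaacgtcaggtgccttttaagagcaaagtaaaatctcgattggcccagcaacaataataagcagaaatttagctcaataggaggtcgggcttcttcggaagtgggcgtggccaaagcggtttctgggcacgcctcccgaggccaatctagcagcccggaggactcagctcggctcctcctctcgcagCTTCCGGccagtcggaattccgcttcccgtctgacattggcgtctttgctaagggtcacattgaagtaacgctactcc
Cox5b: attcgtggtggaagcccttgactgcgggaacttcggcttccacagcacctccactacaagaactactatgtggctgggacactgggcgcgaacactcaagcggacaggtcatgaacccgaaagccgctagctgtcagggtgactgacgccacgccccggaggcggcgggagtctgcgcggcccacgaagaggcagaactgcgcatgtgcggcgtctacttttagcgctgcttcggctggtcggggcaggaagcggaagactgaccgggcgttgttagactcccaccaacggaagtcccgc
The windows of Cox7a1, Cox5a and Cox5b held no match to these letters, Cox8a held 2 ETS matches, Cox6a1 2 NRF1 matches and 1 ETS match, and Cox6b1 1 ETS match. The windows of Cox7a1 and Cox5a also differ in base composition, with 7 and 35 CG pairs and 53.0% and 65.0% G or C. Over the 71 genes, NRF1 letters stood in 15 windows (21.1%, against 4.78% of 27025 promoters), ETS letters in 16 (22.5% against 9.12%) and YY1 letters in 9 (12.7% against 2.88%). Any of the 3 stood in 8 of 16 windows of genes that fell, 4 of 5 of genes that rose and 22 of 45 of genes that did not pass, against 15.2% of all promoters. By complex, these were 3 of 13 in complex IV (23.1%), 15 of 30 in complex I and 9 of 14 in complex V. In complexes III and II they were 3 of 5 and 2 of 2. All 3 of complex IV are among the windows shown, and the window of Cox6b2 held no match to the 3 motifs. Of the other letters searched, AAGGTCA (the element of ERR receptors) stood in 9.86% of the windows and 4.66% of all promoters, TTCNNNGAA (STAT) in 7.04% and 8.47%, CCAAT in 43.7% and 37.9%, and the MEF2 element in 0 of 71 and 0.115%. The 27025 promoters include those of genes not detected here, and no share over the tested genes was computed. Base composition was not matched either. A match describes letters in a window and is not a bound site.

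Complex I is the largest complex, an L-shaped enzyme with a matrix arm that oxidises NADH and a membrane arm that pumps protons. Among the core subunits of the matrix arm, Ndufv2 fell and Ndufv1, Ndufs3, Ndufs7 and Ndufs8 did not pass. Ndufv2, an iron-sulfur subunit at the NADH end, had 10.99 and 10.98 in ESC and 10.41, 10.45 and 10.71 in N2B27 48 hr. All 3 were lower, a 1.37-fold fall (-0.46 ± 0.10, adjusted p = 0.00348). Its neighbour Ndufv1, the subunit that binds NADH and flavin, had 11.11 and 11.21 against 11.23, 11.13 and 11.07, and its groups overlapped (-0.02 ± 0.08, adjusted p = 0.874). The log2 changes of Ndufs3, Ndufs7 and Ndufs8, iron-sulfur or structural subunits on the way to coenzyme Q, were 0.20, 0.04 and 0.02.

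Of the accessory subunits, Ndufa3 changed most. It had 10.20 and 10.17 in ESC and 9.48, 9.11 and 9.12 in N2B27 48 hr, a 1.93-fold fall (-0.95 ± 0.12, adjusted p = 8.58e-05) that passed in all 20 alternatives. Ndufa1, a small membrane subunit encoded on the X chromosome, fell by 0.34 ± 0.09 (adjusted p = 0.0141), a call lost on leaving out either ESC array (adjusted p = 0.112 and 0.0779) or N2B27 48 hr replicate 2 (0.0557). The other 10 tested subunits of the A series did not pass, among them Ndufa9 (0.03), Ndufa10 (0.12), Ndufa13 (-0.19) and the acyl carrier protein Ndufab1 (-0.11, undetected on 1 N2B27 48 hr array). Ndufa5 and Ndufa13 lay close to the threshold (adjusted p = 0.0522 and 0.0541), with the groups apart in opposite directions, and both passed without N2B27 48 hr replicate 3 (adjusted p = 0.0481 and 0.0401), as did Ndufa6 as lower (-0.24, adjusted p = 0.0196).

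Most subunits of the B series sit in the far part of the membrane arm. Of 11 tested genes of the B and C series, Ndufb4 and Ndufc1 fell, Ndufb7 rose and 8 did not pass, with log2 changes from -0.44 (Ndufb9) to 0.09 (Ndufb3). Of these 8, Ndufb9 passed as lower without N2B27 48 hr replicate 2 (-0.58, adjusted p = 0.0293), Ndufb10 without replicate 1 (-0.40, adjusted p = 0.0386) and Ndufb5 without replicate 3 (-0.33, adjusted p = 0.0296). Ndufc1 had 11.64 and 11.55 in ESC and 11.12, 11.20 and 11.21 in N2B27 48 hr by its brighter probe, a 1.34-fold fall (-0.42 ± 0.08, adjusted p = 0.00111), and its other probe did not pass (-0.28, adjusted p = 0.0659). Ndufb4 was dim, at 5.43 on both ESC arrays against 4.86, 5.02 and 4.94 (adjusted p = 0.0168). Ndufb7 had 6.71 and 6.74 against 7.15, 7.04 and 7.07 (0.36 ± 0.12, adjusted p = 0.0354). Leaving out either ESC array ended the calls of Ndufb4 (adjusted p = 0.130 and 0.135) and Ndufb7 (0.192 and 0.166), and that of Ndufb7 was also lost without N2B27 48 hr replicate 1 or 2 (0.0643 in both).

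Ndufs6, a zinc-binding accessory subunit of the matrix arm, rose by 0.24 ± 0.08 (adjusted p = 0.0426), from 11.77 and 11.79 to 12.149, 12.001 and 11.901. The call ended on leaving out either ESC array (adjusted p = 0.179 and 0.160) or N2B27 48 hr replicate 1 or 2 (0.0911 and 0.0867). The 4 probes of Ndufs4, an accessory subunit needed for a stable matrix arm, gave log2 changes from -0.23 to -0.01 and none passed. Of the 3 probes of Ndufv3, 1 fell by 0.43 and 2 did not pass, including the brightest (-0.18, adjusted p = 0.0979).

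**Figure D4:**
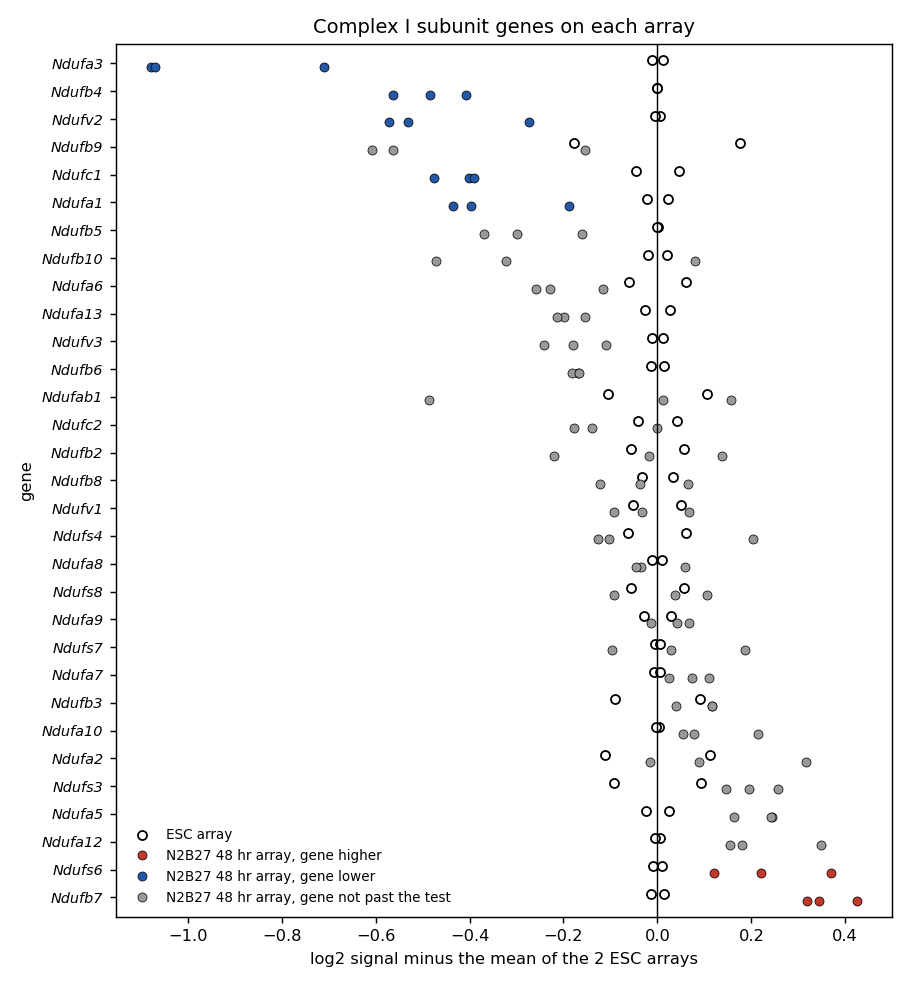
Log2 signal of each of the 31 tested complex I genes on each array, minus the mean of the 2 ESC arrays (x axis), with ESC arrays as open circles and N2B27 48 hr arrays filled, blue for genes that fell, red for genes that rose and grey for genes that did not pass. Ndufa3 lies lowest, and 24 of the 31 genes are grey and spread to both sides of 0.

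The complex I assembly factors matched by the same prefix are not subunits of the finished enzyme. Of 5 tested, 2 rose and 0 fell. A longer list of complex I assembly factors, chosen like the lists below, includes these 5. Of its 10 tested genes 3 rose, among them Ecsit (0.42), and 0 fell, with a median log2 change of 0.07. Over all tested genes 23.8% rose and 21.4% fell. Ndufaf7, an arginine methyltransferase needed for assembly, had 6.06 and 6.09 in ESC and 7.36, 7.31 and 7.12 in N2B27 48 hr. These 3 arrays were about 1 log2 unit higher, a 2.28-fold rise (1.19 ± 0.14, adjusted p = 4.27e-05), the largest upward change among the 79 genes, while its other 2 probes were detected on 0 arrays. Ndufaf4 had 8.27 and 8.23 against 8.71, 8.83 and 8.82 (0.54 ± 0.10, adjusted p = 0.00136). Ndufaf1, Ndufaf3 and the brighter probe of Ndufaf5 did not pass, and the dimmer probe of Ndufaf5 fell by 0.48. The probe annotated to the pseudogene Ndufs5-ps fell by 0.31 ± 0.10 (adjusted p = 0.0297), a call lost on leaving out either ESC array (adjusted p = 0.0838 and 0.280). Whether that probe reads the pseudogene or its parent Ndufs5 cannot be told from the annotation.

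Complex II, succinate dehydrogenase, is the enzyme shared by the respiratory chain and the citric acid cycle. Its membrane anchors Sdhc and Sdhd rose and its iron-sulfur subunit Sdhb did not pass. Sdhd had 5.71 and 5.72 in ESC and 5.91, 6.48 and 6.45 in N2B27 48 hr (0.56 ± 0.19, adjusted p = 0.0319). Sdhc had 9.59 and 9.48 against 9.88, 9.74 and 9.75 (0.26 ± 0.09, adjusted p = 0.0400). The N2B27 48 hr arrays were above both ESC arrays in each. The call of Sdhd ended on leaving out either ESC array (adjusted p = 0.145 and 0.136) or N2B27 48 hr replicate 2 or 3 (0.117 and 0.0526). That of Sdhc ended on leaving out either ESC array (adjusted p = 0.105 and 0.286) or N2B27 48 hr replicate 1 or 2 (0.0937 and 0.0673). The 3 probes of Sdhb gave log2 changes of -0.20, -0.08 and 0.23, and 0 of them passed (adjusted p = 0.117 for the brightest).

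Complex III, the cytochrome bc1 complex, hands electrons from coenzyme Q to cytochrome c. Of its 7 tested genes the small accessory subunits Uqcrb and Uqcr10 fell. Uqcr10 had 12.90 and 12.78 in ESC and 12.38, 12.21 and 12.31 in N2B27 48 hr by its brighter probe, a 1.46-fold fall (-0.54 ± 0.08, adjusted p = 2.28e-04), and its other probe fell by 0.50. Uqcrb, which lies near the site where coenzyme Q is bound, had 9.67 and 9.86 against 8.9997, 9.37 and 9.24, a 1.47-fold fall (-0.56 ± 0.12, adjusted p = 0.00324) that did not pass without ESC replicate 2 (adjusted p = 0.0611). The accessory subunits Uqcrh and Uqcr11 and the core proteins Uqcrc1 and Uqcrc2 did not pass, with Uqcrc1 nearest (-0.23 ± 0.09, adjusted p = 0.0561, and adjusted p = 0.0354 without N2B27 48 hr replicate 1). Uqcrh overlapped between the groups, and passed as lower without N2B27 48 hr replicate 3 (-0.18, adjusted p = 0.0400). Cyc1, the catalytic cytochrome c1, had 10.18 and 10.24 against 10.39, 10.25 and 10.13 (0.04 ± 0.10, adjusted p = 0.752).

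Cytochrome c itself, encoded by Cycs, carries electrons from complex III to complex IV and was read by a dim probe. It had 4.84 and 4.83 in ESC and 4.80, 5.06 and 5.11 in N2B27 48 hr, did not pass (0.15 ± 0.15, adjusted p = 0.448), and its other probe was detected on 1 array. Cox7a2l, named after subunit 7a but known as a factor that joins complexes III and IV into supercomplexes, did not pass either (0.20 ± 0.10, adjusted p = 0.150). The 3 tested genes of the subunit 7a family thus had log2 changes of -3.46 for Cox7a1, -0.38 for Cox7a2 and 0.20 for Cox7a2l.

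Complex V has a catalytic head (F1) in the matrix, joined by stalks to a ring of c subunits in the membrane. None of the 5 tested F1 genes passed. Atp5b, the catalytic beta subunit, had 14.15 and 14.25 in ESC against 14.09, 14.10 and 14.15 (-0.09 ± 0.06, adjusted p = 0.299), and Atp5a1, the alpha subunit, overlapped likewise (0.10 ± 0.13, adjusted p = 0.599). Atp5d and Atp5e, the small delta and epsilon subunits, had the highest log2 changes of the complex (0.28 and 0.37). All N2B27 48 hr arrays lay above both ESC arrays in each, and neither gene passed (adjusted p = 0.0579 and 0.0984). The probe of Atp5e was dim, at 4.81 and 4.75 in ESC. Both passed without N2B27 48 hr replicate 3 (adjusted p = 0.0251 and 0.0492).

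The c ring subunit is encoded by 3 genes whose mature products are known to be identical. Atp5g1 had 12.59 and 12.46 in ESC and 12.14, 12.13 and 11.79 in N2B27 48 hr, a 1.42-fold fall (-0.50 ± 0.11, adjusted p = 0.00302) that passed in all 20 alternatives. Atp5g2 did not pass (0.20 ± 0.10, adjusted p = 0.133), nor did Atp5g3, which overlapped between the groups (-0.01 ± 0.07, adjusted p = 0.933). How far the probes separate these similar transcripts was not tested. Of the stalk genes Atp5h, the d subunit, had 9.35 and 9.46 against 9.08, 8.93 and 8.86 (-0.45 ± 0.10, adjusted p = 0.00462), and did not pass without ESC replicate 2 (adjusted p = 0.0795). Atp5pb (b subunit) and Atp5o, whose product confers oligomycin sensitivity, did not pass. The probes of Atp5j, coupling factor 6, disagreed: the brighter had 11.996 and 11.853 against 11.68, 11.63 and 11.83 and did not pass (-0.21 ± 0.09, adjusted p = 0.0669), passing as lower without N2B27 48 hr replicate 3 (adjusted p = 0.00819), whereas a dimmer probe rose by 0.74 ± 0.15 (adjusted p = 0.00203).

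The small membrane subunits Atp5j2 and Atp5mpl fell by 0.24 ± 0.08 and 0.29 ± 0.09 (adjusted p = 0.0324 and 0.0296), and Atp5l did not pass. Atp5mpl missed the threshold on leaving out either ESC array (adjusted p = 0.133 and 0.161) or N2B27 48 hr replicate 1 or 2 (0.0752 and 0.0967), and Atp5j2 missed it without ESC replicate 1 or N2B27 48 hr replicate 2 (adjusted p = 0.309 and 0.0742). Across all complexes, 12 genes had at least 2 tested probes. In 8 of them the probes gave the same call, in 0 of them opposite calls, and in 9 of them the same sign.

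Genes that build and serve the complexes were followed in lists chosen with earlier results of these data known. Of 17 tested assembly factors of complex IV, 4 fell (23.5%) and 3 rose (17.6%), with a median log2 change of 0.03. Over all tested genes 21.4% fell and 23.8% rose, so the share of these factors that fell is near the background. Cox17, a copper chaperone, fell 2.01-fold (-1.01 ± 0.08, adjusted p = 2.46e-06), and Cox20 (-0.66) and Cox18 (-0.47), which handle the mitochondrially encoded subunit 2, fell with it, as did Cox14 (-0.28). Surf1, an early assembly factor (0.94 ± 0.19, adjusted p = 0.00224), Cox10, which makes the heme of the enzyme (0.49), and Coa5 (0.49) rose. In complex II 2 of 4 assembly factors rose and 1 fell, in complex III 2 of 4 rose (Uqcc1 and Ttc19, 0.45 and 0.40), and in complex V the inhibitor gene Atpif1 rose (0.23) among 3 tested.

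The shares to set beside the counts below are 23.8% higher and 21.4% lower over all tested genes. Among 6 tested regulators of respiratory genes, Nrf1, Gabpa, Gabpb1, Esrra and Hcfc1 did not pass, with log2 changes from -0.19 to 0.26. The coactivator gene Ppargc1b rose (0.73 ± 0.16, adjusted p = 0.0042). In the maintenance and transcription of mitochondrial DNA 4 of 10 genes rose and 0 fell. These were Ssbp1, a single-strand binding protein (0.83 ± 0.10), the accessory polymerase subunit Polg2 (0.58), Tfam, which packages and transcribes that DNA (0.56 ± 0.15, adjusted p = 0.0113), and the elongation factor gene Tefm (0.44). Mitochondrially encoded subunits were not analysed here. Of 18 import genes 6 rose (33.3%) and 0 fell, led by the small chaperones Timm8a1 (0.96), Timm10 (0.76) and Timm9 (0.65). Among 71 mitochondrial ribosomal protein genes 25 rose (35.2%) and 3 fell (4.23%), with a median of 0.17. Among 60 cytosolic ones 2 rose (3.33%) and 4 fell (6.67%), with a median of 0.06.

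Of 6 genes that feed electrons to coenzyme Q outside complexes I and II, the electron transfer flavoprotein genes of fatty acid oxidation fell, Etfb 2.10-fold (-1.07 ± 0.20, adjusted p = 0.00129) and Etfa (-0.45), while Gpd2 of the glycerol phosphate shuttle (0.48) and Prodh (0.74) rose. In coenzyme Q synthesis Coq2, Coq5 and Coq7 rose (3 of 9, 33.3%) and Coq3 and Coq6 fell (22.2%). Among 15 genes of the citric acid cycle and pyruvate dehydrogenase 2 rose (13.3%) and 3 fell (20.0%), Idh2 most (-1.39 ± 0.11). Over all tested genes 23.8% rose and 21.4% fell. Of 6 genes for the exchange of ATP, phosphate and metabolites, Vdac1 (-0.44), a pore of the outer membrane, and Slc25a5 (-0.28), which exchanges ADP for ATP, fell, and 0 rose.

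**Figure D5:**
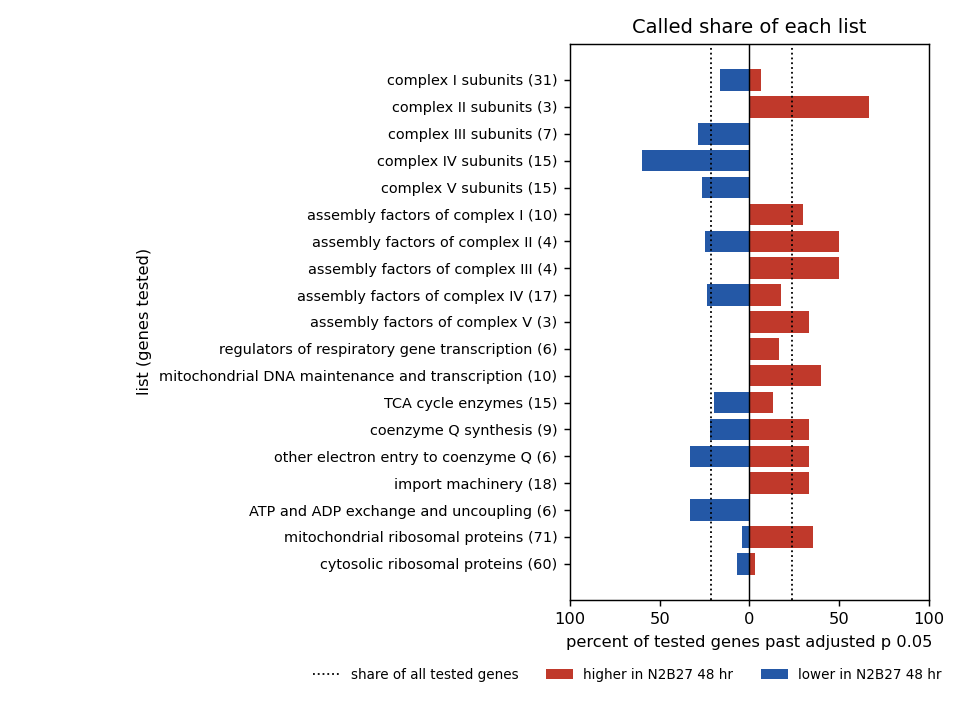
Percent of the tested genes of each list that passed the test as higher (right, red) or lower (left, blue) in N2B27 48 hr, with the number of genes tested in brackets and dotted lines at the shares of all tested genes (21.4% lower, 23.8% higher). Complex IV subunits reach furthest to the left at 60.0%. Lists without a blue bar are complex II subunits, assembly factors of complexes I, III and V, regulators, mitochondrial DNA genes and import genes.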

How the data were processed

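Each sample was hybridised to 1 Illumina mouse bead array with 1 colour, and groups follow the sample titles. The main deposited table gives, per the file headers, an average signal intensity for each probe (linear, before any normalization between arrays) together with its detection p-value. BeadStudio is named in the submitters' processing notes, with a version not given in the sources used here. The lowest signals were 38.5 to 40.7, so background was still present. The authors' second deposited table holds normalized intensity values of the same arrays (sorted values within 1.35% of each other, medians 65.2 to 65.3), and it served as an alternative.

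Background was corrected by normexp with control values inferred from the detection p-values (limma 3.58.1, R 4.3.3), an offset of 16 was added, and log2 values were quantile normalized, so fold changes are on the log2(value + 16) scale and understate those of dim genes. Probes detected on at least 2 arrays were fitted with lmFit and eBayes with a variance trend, two-sided, and p-values were adjusted over all 12605. The standard error of a log2 change follows its ± sign. The number of arrays limits the precision, with a median standard error of 0.145 over all tested probes. A lower bound sets the brighter group's mean against the dim group's mean, in which each array counts with the lowest detected signal wherever the probe lies under it.

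Gene names are those of the platform annotation (23978 probes with 1 symbol, 1719 unnamed). Promoters are RefSeq's (GRCm38.p6), and 7 motifs were searched. The members, the assignment to complexes, the lists and the motifs were chosen with earlier results of these data known. Named genes were the 4 largest changes past the test in each complex, the core subunits, the alternative isoforms, any other member by its value, and of each list the 3 largest changes past the test and members that did not pass; further list genes were named after their values were seen. The files used here carry no slide or scan date, and no batch of that kind was tested.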

Additional observations from a re-analysis of the deposited data

How the results depend on the processing

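Of the 27 genes called, 11 passed in all 20 alternatives (Cox7a1, Cox5a, Cox8a, Cox6a1, Cox6b2, Cox4i1, Ndufa3, Ndufc1, Uqcr10, Atp5g1 and Ndufaf7), 16 lost the call in at least 1, and 0 reversed. The median of complex IV was below 0 in all 20. It was -0.28 with no background correction, -0.29 with an offset of 50, -0.45 with an offset of 1, -0.29 with the authors' deposited normalized values and -0.43 with the mean of all probes of a gene. Scaling to the median of all probes gave 1 higher gene (1.27%, against 8.61% of all genes) and 14 lower (17.7%, against 20.4%). It gave 2562 changed genes of all tested, and medians of -0.21, 0.069, -0.32, -0.62 and -0.16 for complexes I to V. Scaling to detected probes gave 0.012 for complex I. Cyclic loess gave 3 higher genes (19.9% of all genes were higher) and 32 lower genes (40.5%, against 25.2% of all genes), and medians of -0.12, 0.17, -0.25, -0.48 and -0.048. Without a filter on dim probes, 3 genes were higher (3.45%, against 11.3% of all genes) and 17 lower (19.5%, against 10.8%). The medians were then -0.043 for complex III and -0.24 for complex IV. Array weights gave 11 higher genes (13.9%, against 28.8% of all genes), 28 lower (35.4%, against 25.0%) and -0.15 for complex III. The cause of these shifts was not tested. Leaving out 1 array at a time gave 2 to 8 higher and 12 to 26 lower genes, 2340 to 4234 changed genes of all tested, and medians of -0.11 to -0.0014 (I), 0.21 to 0.32 (II), -0.18 to -0.060 (III), -0.45 to -0.36 (IV) and -0.036 to 0.056 (V). Without an ESC array the remaining one is assumed to vary like the other group. Dim probes near background limit Cox8c, Cox6a2, Ndufab1, Cycs, Ndufaf3, Atp5e and Ndufb4, among others.

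With the replicate number as a block, 8 genes were higher (10.1%) and 25 lower (31.6%), against 26.4% and 22.9% of all genes. The medians were -0.12 (I), -0.18 (III), -0.43 (IV) and -0.0095 (V). Replicate 3 exists only in N2B27 48 hr, so the block takes up that array and the contrast rests on the other arrays. This fit therefore lies close to leaving that array out (8 higher and 26 lower) and is not a separate check. The deviations of same-numbered arrays from their group means correlated at -0.085 and -0.028. With 2 ESC arrays, the ESC deviations are mirror images, so these values cannot tell whether the numbers pair the samples.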
